A study of Mus musculus with 16 samples.

Results

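The genes described here are the nuclear genes for the subunits of the mitochondrial respiratory chain and ATP synthase, followed in livers of mice with and without a liver-specific Degs1 knockout on 2 diets. They were chosen by symbol among protein-coding genes: Nduf genes of the a, b, c, s and v series for complex I, Sdha to Sdhd for complex II, Uqcr genes and Cyc1 for complex III, Cox4 to Cox8 genes for complex IV and Atp5 genes for complex V. Of 53801 gene IDs in the count table, 84 protein-coding genes matched, and the 78 with at least 10 counts in at least 4 of the 16 livers were kept. These were 36 genes of complex I, 4 of complex II, 9 of complex III, 12 of complex IV and 17 of complex V. The 6 genes left out were Cox4i2, Cox6a2, Cox6b2, Cox7b2, Cox8b and Cox8c, which are isoforms known from tissues other than liver, and none had more than 8 counts in any liver. All 78 kept genes entered the test across 14351 genes.

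RNA was sequenced from 4 livers in each of 4 groups: controls on normal chow, liver-specific Degs1 knockouts on normal chow, controls on a high-fat diet and liver-specific Degs1 knockouts on a high-fat diet. Degs1 encodes the desaturase that makes ceramide from dihydroceramide. Every mouse has its own number in the labels. The numbers run from 194 to 220 in chow controls, 179 to 187 in chow knockouts, 61 to 76 in high-fat controls and 82 to 92 in high-fat knockouts. These ranges do not overlap, so number range cannot be told apart from group, and what the numbers follow is not given. The strain, sex, age, length of feeding, Cre driver, floxed allele and genotype of the controls do not appear in the sources used here. Livers are named below by group and by a number from 1 to 4 that follows the order of deposit and pairs nothing.

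Complex I (NADH dehydrogenase) and complex II (succinate dehydrogenase) pass electrons to ubiquinone, complex III (the cytochrome bc1 complex) passes them to cytochrome c, and complex IV (cytochrome c oxidase) passes them to oxygen. Complexes I, III and IV pump protons, and complex V (ATP synthase) uses the proton gradient to make ATP. All but complex II also hold subunits encoded by mitochondrial DNA, so these complexes are built from the products of both genomes. In hepatocytes the chain takes the electrons released by fatty acid oxidation and the citric acid cycle.

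Libraries held 11938596 to 23250885 counts. Degs1 was at 80.4 to 87.9 CPM (counts scaled to the size of the library) in chow controls against 35.9 to 39.3 in chow knockouts, and at 60.2 to 101 in high-fat controls against 26.1 to 41.6 in high-fat knockouts, so the labels and the targeted gene did not conflict in any liver. Counts were also summed over genes annotated as sense intronic or as TEC, a class for loci awaiting experimental evidence. These were 0.0218% of all counts in high-fat control 3, the lowest of the 16 livers. In high-fat controls 1, 2 and 4 they were 0.164, 0.123 and 0.0512%. This share is called the unspliced share below as a label only, because reads from unspliced RNA were not measured. That share was 0.0263 to 0.0411% in chow controls, 0.0463 to 0.0878% in chow knockouts, up to 0.164% in high-fat controls and 0.162 to 0.191% in high-fat knockouts. The nuclear RNA Malat1 ran from 249 to 666, 690 to 1360, 180 to 4028 and 2949 to 3512 CPM in the same order of groups. The 5 hepatocyte markers, none at 0, summed to 100196 to 117732, 110493 to 130584, 72058 to 105584 and 54198 to 74704 CPM. Most of each sum was Alb, at 51943 to 78384 CPM in high-fat controls and at 40870 to 56345 in high-fat knockouts. The 6 markers of recruited macrophages summed to 51.9 to 115, 64.3 to 85.1, 40.9 to 96.3 and 52.9 to 160 CPM. In bulk liver, fewer hepatocytes, less RNA per hepatocyte and lower expression of Alb itself cannot be told apart by such a sum.

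Levels were compared between genes per kilobase of the principal transcript, as the mean of the 4 chow controls. Atp5b, the catalytic beta subunit of ATP synthase, was the highest at 663 CPM per kb, with its partner Atp5a1 at 467. Cox4i1, the widely expressed form of cytochrome oxidase subunit 4, followed at 452.6 CPM per kb. Ndufa4, whose protein was first assigned to complex I and is now counted with complex IV, was at 388 CPM per kb. The complex II genes were at 190 for Sdha, the flavoprotein that oxidises succinate, 182 for Sdhb, the iron-sulfur subunit, 169 for the membrane anchor Sdhd and 39.0 for the anchor Sdhc. Among genes with tissue isoforms, Cox6b1, Cox6a1, Cox8a and Cox7a2 were at 301, 297, 280 and 210 CPM per kb, Cox7b at 148 and Cox7a2l at 62.3. The heart and muscle form Cox7a1 was at 2.81, the lowest of the 78. The 3 genes for the c subunit of the ATP synthase rotor encode the same mature protein, and stood at 285 CPM per kb for Atp5g3, 25.3 for Atp5g1 and 16.1 for Atp5g2, of whose 50-base windows 87.4% also occur in other genes. The principal transcripts taken for them were 723, 4715 and 731 bases long, and that of Sdhc 3171, which lowers the values of Atp5g1 and Sdhc. Before division by length, Atp5g3 averaged 184 CPM and Atp5g1 102 CPM in high-fat controls 1, 2 and 4. The order depends on the length used: per kilobase of all exons of a gene together, Atp5a1 was the highest at 368 CPM per kb, ahead of Atp5b at 300.0, and Atp5l the lowest at 1.16, below Cox7a1 at 2.07.

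Respiratory chain genes are known targets of the factors NRF1, GABP, YY1 and ERR alpha, so the promoters of genes that lay lower together in the high-fat knockouts are shown first. RefSeq promoter windows on GRCm38.p6, from 250 bases before to 50 bases after the start, were found for 65 of the 78 genes. Those without a window included Ndufa2, Ndufb9, Ndufs1, Sdhc, Cyc1, Uqcrb, Uqcrc2, Uqcrq, Cox4i1, Cox6c, Atp5a1 and Atp5mpl. The stretches below run 5′ to 3′ on the strand of the gene, from 100 bases before to 10 bases after the start. Each complex is shown by a gene with a match near the start, and capitals mark a match, on either strand, to the NRF1 core GCGCATGCG or the ETS motif CCGGAAG that GABP binds.
Ndufa11, complex I, chr17:56717662-56717771, plus strand: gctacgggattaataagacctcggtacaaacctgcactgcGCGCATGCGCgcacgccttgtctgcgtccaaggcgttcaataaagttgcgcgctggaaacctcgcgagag
Sdhd, complex II, chr9:50603840-50603949, minus strand: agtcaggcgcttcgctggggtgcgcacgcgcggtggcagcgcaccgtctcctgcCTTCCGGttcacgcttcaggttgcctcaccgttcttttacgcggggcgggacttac
Uqcr11, complex III, chr10:80406812-80406921, minus strand: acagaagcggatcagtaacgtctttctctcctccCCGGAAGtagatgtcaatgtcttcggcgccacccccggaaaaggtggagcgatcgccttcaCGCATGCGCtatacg
Cox6b1, complex IV, chr7:30626105-30626214, minus strand: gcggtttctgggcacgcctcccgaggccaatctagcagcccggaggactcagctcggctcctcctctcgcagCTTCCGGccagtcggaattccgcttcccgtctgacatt
Atp5k, complex V, chr5:108434390-108434499, minus strand: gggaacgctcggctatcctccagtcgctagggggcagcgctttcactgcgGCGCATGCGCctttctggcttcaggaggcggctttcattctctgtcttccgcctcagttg
The capital runs in Ndufa11 and Atp5k are a pair of overlapping NRF1 matches on opposite strands. In Uqcr11 the first capitals are the ETS match and the second the NRF1 match.

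Of the 65 genes, 8 (12.3%) held the NRF1 core on either strand, against 1.95% of all 27025 genes with a window. There were 32851 windows of this length, and a gene counted if any of its windows held the motif. The ETS motif was in 16 (24.6%, against 9.93%), among them Sdhb, Sdhd, Uqcrh, Cox8a and Atp5h. The YY1 motif AAGATGGCG was in 7 (10.8%, against 1.64%): Atp5j, Atp5j2, Ndufa9, Ndufc1, Ndufs4, Ndufs6 and Ndufs7. At least 1 of these motifs was in 26 genes (40.0%, against 12.7%). The ERR motif AAGGTCA was in 8 genes (12.3%, against 5.38%), and the Sp1 motif GGGCGG in 26 (40.0%, against 38.2%). The median GC content, with the windows of a gene averaged, was 58.3% for the members and 52.8% for all genes with a window. Its part in these shares was not tested. All motifs were searched on both strands, matches to different motifs may share bases, and a match describes the letters only.

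The liver in which the genes were highest was the same for nearly all of them. High-fat control 3 had the highest level of the 16 livers for 75 of the 78 genes, and it lay above the other high-fat controls for 77, by a median of 1.81-fold. The exception was Sdha, at 0.832 times the mean of the other high-fat controls, and the largest ratio was 2.76 for Cox7a1. High-fat knockouts 2 and 3 were the lowest of the 16 livers for 27 and 26 genes. Summed over the 78 genes, levels were 11081 to 12591 CPM in chow controls, 9652 to 10493 in chow knockouts and 7730 to 8747 in high-fat knockouts. In high-fat controls they were 9503 to 10767, and 17573 in high-fat control 3.

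**Figure D1:**
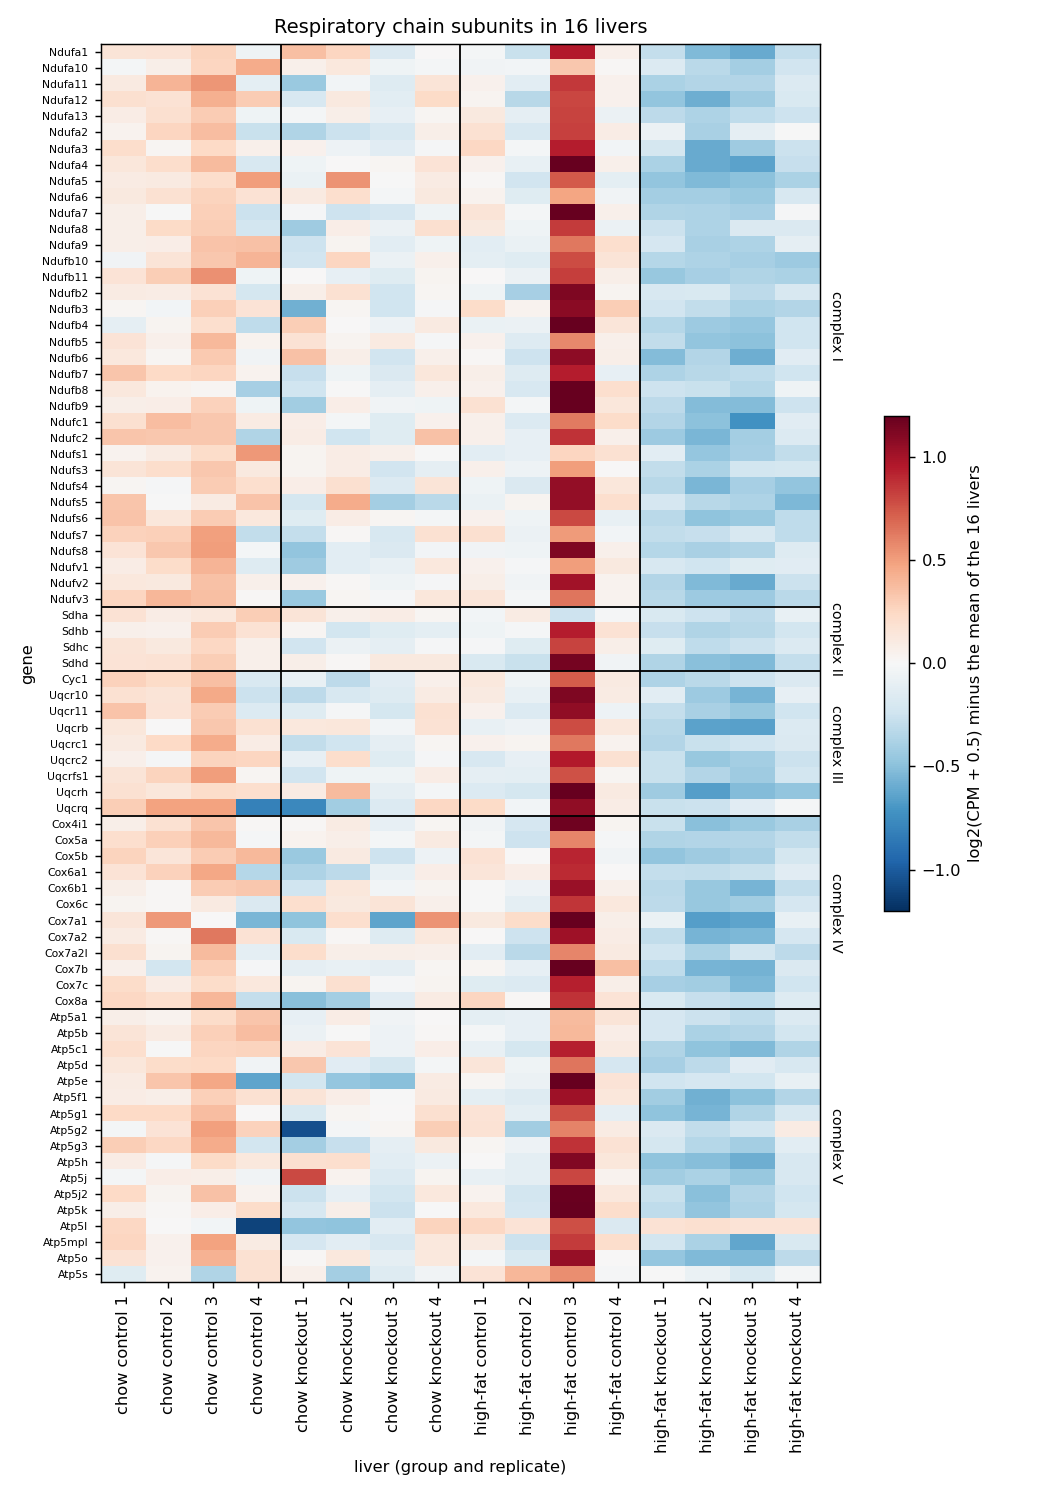
Heat map of log2 CPM, with 0.5 CPM added, of 77 of the genes (rows, by complex) relative to the gene's own mean, in the 16 livers (columns, by group); colours end at 1.2 in either direction. High-fat control 3 is the dark red column, and the high-fat knockouts are the low block at the right.

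A relative level was taken for each liver as the mean over genes of log2 CPM less the gene's mean over the 16 livers. High-fat knockouts lay at -0.41 to -0.21 and chow controls at 0.01 to 0.31. Chow knockouts lay at -0.12 to 0.07 and 3 of the high-fat controls at -0.10 to 0.07, with high-fat control 3 at 0.88. The 5 complexes gave similar levels within each liver. In high-fat control 3 they reached 0.86 for complex I, 0.66 for complex II, 0.93 for complex III, 0.997 for complex IV and 0.87 for complex V. For each complex every high-fat knockout was below every high-fat control, with and without that liver.

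**Figure D2:**
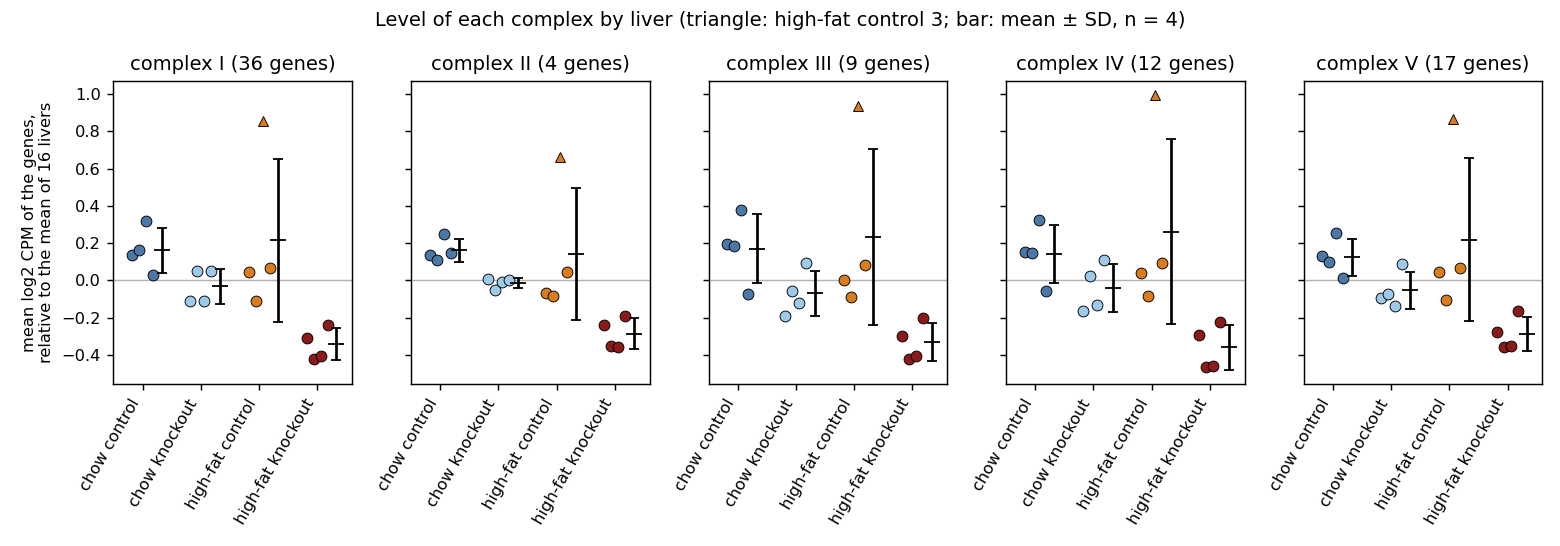
Relative level of each complex (mean over its genes of log2 CPM less the gene's mean over 16 livers; y axis) in every liver (points, 4 per group; triangle, high-fat control 3; bars, mean ± SD). In each panel the high-fat knockouts sit lowest, at -0.47 to -0.16, and high-fat control 3 sits alone at 0.66 to 0.997.

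Knockouts were compared with controls on the high-fat diet to ask what the loss of Degs1 in liver does to these genes under fat feeding. All 78 genes were lower in the knockouts, with a median log2 fold change of -0.62, which is 35.0% lower, against 0.03 over all genes tested. None passed edgeR's quasi-likelihood test with Benjamini-Hochberg adjustment over all genes at 0.05 (smallest adjusted p 0.0923), where 0.0488% of all genes were called lower. At an unadjusted p under 0.05, 73 of the 78 were lower, against 12.8% of all genes. For 60 of the 78 every knockout was below every control, against 7.78% of all genes. DESeq2 called 39 of the 78 lower, against 2.56% of all genes, edgeR without the filter on low counts called 49, against 1.43%, and limma-voom with quality weights called 10, against 1.05%. The call therefore rested on the tool and the filter.

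The comparison also rested on high-fat control 3 for its size. Without it the median was -0.32, with 77 genes lower, 51 at an unadjusted p under 0.05 (against 5.68% of all genes) and none called. The knockouts were below the 3 other controls for 61 genes, against 10.2% of all genes. By complex these were 28, 3, 8, 10 and 12 genes of complexes I to V. Adding the log2 unspliced share to the model as a covariate gave a median of -0.20, with 74 genes lower and 5 at an unadjusted p under 0.05 (against 3.06% of all genes). Of the high-fat controls, only replicate 1 reached the range of the knockouts in that share. The sums of the 5 hepatocyte markers, given above and mostly Alb, also ran lower in the high-fat knockouts (54198 to 74704 CPM). In the high-fat controls they were 72058 to 105584 CPM, with an overlap between groups. None of the 5 markers was called.

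Some markers of other cells were higher in this contrast. Col1a1, the collagen gene on the list of stellate cell markers, was at 5.90, 7.96, 8.80 and 9.65 CPM in high-fat controls and at 66.5, 53.6, 56.0 and 16.5 in knockouts, without overlap. It rose by 2.57 on the log2 scale (SE 0.35, edgeR adjusted p = 0.00376), where 0.0627% of all genes were called higher. With only the groups compared in the fit its adjusted p was 0.0853, and with the unspliced share in the model 0.0535. Cygb, another stellate cell marker, did not overlap either (5.14 to 5.83 and 8.72 to 9.93 CPM) but was not called, and the median of the 5 stellate markers was 0.01.

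The 6 markers of recruited macrophages were all higher in the high-fat knockouts, with a median of 1.25. None was called (smallest edgeR adjusted p 0.0736), and 4 were higher at an unadjusted p under 0.05, against 8.54% of all genes. Gpnmb was at 28.5, 8.33, 1.76 and 0.932 CPM in knockouts and at 0.318 to 1.02 in controls. Itgax was at 14.1, 9.05, 6.61 and 2.20 CPM in knockouts, of which the last lay within the range of the controls. High-fat knockouts 1 and 2 were the highest for both genes. The part of these cells and of the hepatocyte markers in the difference between the respiratory chain genes was not tested.

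Complex I, the largest complex, had a median of -0.62. There 36 of 36 genes were at an unadjusted p under 0.05, against 12.8% of all genes. For 28 the groups did not overlap, against 7.78% of all genes. Ndufv2, an iron-sulfur subunit of the NADH-oxidising arm (ENSMUSG00000024099, GRCm38 chr17:66078638-66101559), was at 90.1, 83.1, 173 and 88.6 CPM in high-fat controls 1 to 4 and at 67.0, 59.4, 56.2 and 71.8 in the knockouts. The knockouts were all lower, and high-fat control 3 was far above the others. The group means were 109 ± 43.2 and 63.6 ± 7.09 CPM (SD, n = 4), and the fitted log2 fold change was -0.77 (SE 0.19, edgeR adjusted p = 0.0923). Ndufb3, an accessory subunit of the membrane arm (ENSMUSG00000026032, chr1:58586384-58595964), was at 40.7, 35.8, 74.3 and 42.9 CPM in controls and at 29.6, 28.3, 26.6 and 27.3 in knockouts. These groups did not overlap either, and the knockouts lay close to one another. Its log2 fold change was -0.79 (SE 0.19, edgeR adjusted p = 0.0923). The 7 core subunits, which carry the redox centres and the ubiquinone site, had a median of -0.44 and the 29 accessory subunits one of -0.63. By its symbol Ndufa4 was counted among the 36 genes and the 29 accessory subunits, though its protein is now counted with complex IV. All 7 core subunits had groups that did not overlap, against 7.78% of all genes.

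Complex II, the only complex with no mitochondrially encoded subunit, had a median of -0.54. Sdhd (ENSMUSG00000000171, chr9:50596357-50603812), whose promoter stretch with an ETS match is printed above, was at 162, 153, 408 and 179 CPM in high-fat controls and at 143, 130, 127 and 151 in knockouts. High-fat control 3 held 408 CPM, and the highest knockout lay just under the lowest control. The log2 fold change was -0.71 (SE 0.23, edgeR adjusted p = 0.117). Sdhb (ENSMUSG00000009863, chr4:140961203-140979193) was at 181, 186, 360.1 and 212 CPM in controls and at 155, 146, 149 and 161 in knockouts. All knockouts were lower, and the gene differed by -0.62 on the log2 scale (SE 0.18, edgeR adjusted p = 0.103). Sdhc (chr1:171127165-171150603) was at 110.5, 100.6, 196 and 117 CPM in controls and at 100.7, 90.1, 93.4 and 99.5 in knockouts, so the highest knockout and the lowest control were level. Its log2 fold change was -0.45 (SE 0.16, edgeR adjusted p = 0.138). Sdha (ENSMUSG00000021577, chr13:74322254-74350280) was at 477, 523, 411 and 482 CPM in controls and at 431, 411, 392 and 458 in knockouts. Here high-fat control 3 was the lowest control, and it lay among the knockouts. Sdha differed by -0.16 (SE 0.11, edgeR adjusted p = 0.410; two-sided exact permutation p = 0.114).

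Complex III had a median of -0.63, with 8 of 9 genes at an unadjusted p under 0.05 (against 12.8% of all genes) and 8 without overlap (against 7.78%). Uqcrb, a small subunit near the ubiquinone site (ENSMUSG00000021520, chr13:66900617-66905378), was at 96.5, 97.9, 177 and 112 CPM in high-fat controls and at 81.0, 65.4, 65.0 and 91.2 in knockouts. The groups did not overlap, and the log2 fold change was -0.67 (SE 0.17, edgeR adjusted p = 0.0953). Uqcrh, the hinge subunit beside cytochrome c1 (ENSMUSG00000063882, chr4:116066965-116075071), was at 113, 109, 308 and 136 CPM in controls and at 94.1, 79.8, 88.4 and 91.0 in knockouts. All knockouts were lower, and high-fat control 3 was far above any other control. Its log2 fold change was -0.92 (SE 0.25, edgeR adjusted p = 0.0981). The 4 core subunits (Cyc1, Uqcrfs1, Uqcrc1 and Uqcrc2) had a median of -0.52 and the 5 small subunits one of -0.67.

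Complex IV had the lowest median of the 5 complexes, -0.67. There 12 of 12 genes were at an unadjusted p under 0.05 (against 12.8% of all genes) and 10 without overlap (against 7.78%). Cox7b (ENSMUSG00000031231, chrX:106015700-106022450), a small subunit of the oxidase, was at 146, 134, 402 and 185 CPM in high-fat controls and at 116, 97.7, 97.0 and 128 in knockouts. All knockouts were lower, and high-fat control 3 held 402 CPM. The log2 fold change was -0.98 (SE 0.26, edgeR adjusted p = 0.0956). Cox5b, a zinc-binding subunit on the matrix side (ENSMUSG00000061518, chr1:36691449-36693681), was at 105, 93.3, 176 and 90.2 CPM in controls and at 67.0, 69.2, 71.0 and 80.1 in knockouts. The groups did not overlap, and the log2 fold change was -0.69 (SE 0.18, edgeR adjusted p = 0.0981). Cox7a1 had the lowest fold change of the 78, -1.26 (SE 0.50, edgeR adjusted p = 0.163), at levels near the limit of detection: 1.15, 1.27, 3.25 and 1.10 CPM in controls and 0.936, 0.463, 0.480 and 0.932 in knockouts.

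ATP synthase had a median of -0.62, with 14 of 17 genes at an unadjusted p under 0.05 (against 12.8% of all genes) and 12 without overlap (against 7.78%). Atp5f1, the b subunit of the peripheral stalk (ENSMUSG00000000563, chr3:105942698-105960099), was at 203, 198, 446 and 243 CPM in high-fat controls and at 164, 147, 156 and 172 in knockouts. Atp5h, the d subunit of the same stalk (ENSMUSG00000034566, chr11:115415689-115419962), was at 103, 94.5, 222 and 113 CPM in controls and at 72.9, 71.8, 68.2 and 89.6 in knockouts. In both genes all knockouts were lower than all controls. The log2 fold changes were -0.77 (SE 0.20) for Atp5f1 and -0.82 (SE 0.21) for Atp5h, each with an edgeR adjusted p of 0.0953. The 4 peripheral stalk genes had a median of -0.77, the 7 membrane genes one of -0.62 and the 5 genes of the F1 head and central stalk one of -0.43. Atp5l, the g subunit, had the fold change nearest to 0 of the 78, at -0.12 (SE 0.27, edgeR adjusted p = 0.801). It was at 9.97, 9.36, 14.5 and 7.30 CPM in controls and at 9.41, 9.57, 9.33 and 9.32 in knockouts, and 84.8% of its 50-base windows also occur in other genes. The groupings by role were made with the values known, and no difference between roles was tested.

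**Figure D3:**
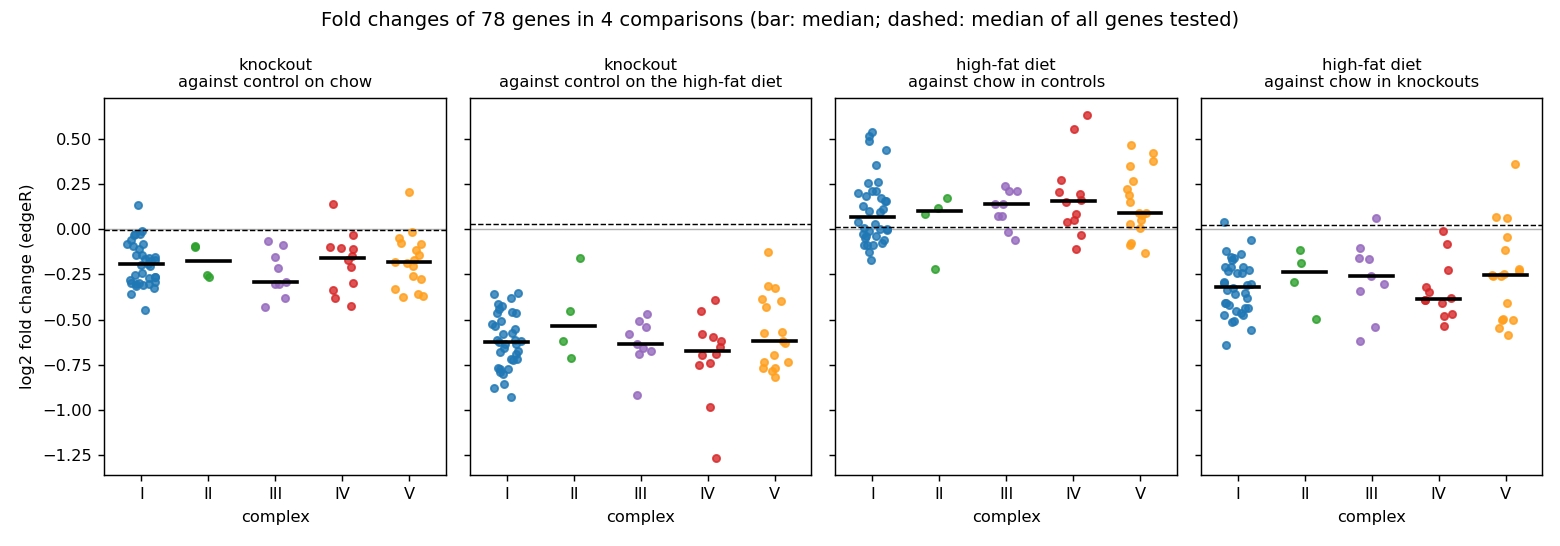
Log2 fold changes of the 78 genes by complex (points; x axis, complex; y axis, log2 fold change) in the 4 comparisons between groups, with the median of each complex as a bar and the median of all genes tested as a dashed line. On the high-fat diet all 78 points lie below 0, between -1.26 and -0.12.

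Transcripts of these genes are short, 371 to 4715 bases, and short transcripts were lower in the high-fat knockouts in general. Among genes that are not members, the median log2 fold change was -0.36 for 1189 genes under 1 kb, -0.17 for 3013 of 1 to 2 kb, 0.03 for 5762 of 2 to 4 kb and 0.18 for 4294 of 4 kb or more. The members' medians lay lower in each class: -0.67 for the 45 under 1 kb, -0.56 for the 26 of 1 to 2 kb, -0.36 for the 5 of 2 to 4 kb and -0.57 for the 2 of 4 kb or more. Those 2 were Ndufb2 and Atp5g1, at 4371 and 4715 bases. Lengths are those of the annotated principal transcript, and which transcripts were in use in liver was not measured. With offsets for transcript length and GC content the members' median was -0.44, with 77 of 78 lower and 69 at an unadjusted p under 0.05, against 20.4% of all genes. Many of the genes have processed pseudogenes: 33 of the 78 share no 50-base window with another gene, and their median was -0.61, with 33 of 33 lower.

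**Figure D4:**
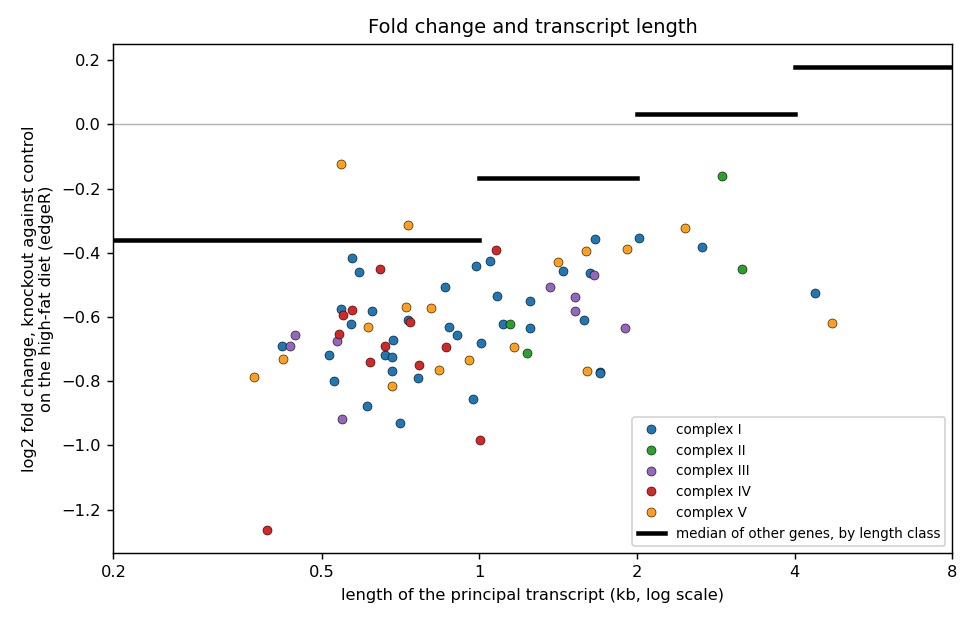
Log2 fold change of each of the 78 genes, knockout against control on the high-fat diet (points, coloured by complex; y axis), by length of the principal transcript (x axis, kb, log scale), with the median of the other genes in each length class as a black bar. The black bars climb from -0.36 under 1 kb to 0.18 at 4 kb or more, and most points lie below the bar of their class.

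On chow the same contrast was smaller. No member was called (smallest edgeR adjusted p 0.469; DESeq2 called none), where 0.0139% of all genes were called lower, and 75 of the 78 were lower with a median of -0.19, against -0.01 over all genes. At an unadjusted p under 0.05 there were 2 lower genes, against 4.42% of all genes, and 12 had groups that did not overlap, against 2.90%. The medians were -0.19, -0.18, -0.29, -0.16 and -0.18 for complexes I to V. Uqcrc1, a core subunit of complex III, was at 271, 296, 342 and 267 CPM in controls and at 204, 212, 232 and 254 in knockouts. The groups were apart and differed by -0.38 on the log2 scale (SE 0.15, edgeR adjusted p = 0.469). Cox5b was at 112, 103, 115 and 122 CPM in controls and at 68.2, 100.2, 78.5 and 89.3 in knockouts, also apart, at -0.43 (SE 0.18, edgeR adjusted p = 0.495). Adding the unspliced share to the model turned the median on chow to 0.039. That share did not overlap between the 2 groups (0.0263 to 0.0411% in controls, 0.0463 to 0.0878% in knockouts). Share and genotype can therefore not be told apart on chow.

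The other genes with the smallest p in each complex on chow included Ndufv3, an accessory subunit of complex I (-0.32, SE 0.16), Cyc1, which is cytochrome c1 (-0.30, SE 0.16), Cox8a (-0.38, SE 0.19), Atp5b (-0.26, SE 0.13) and Atp5g3 (-0.37, SE 0.19), with edgeR adjusted p of 0.531 to 0.554. Ndufv3 was at 75.8, 83.9, 81.3 and 63.8 CPM in controls and 46.3, 64.6, 62.9 and 69.7 CPM in knockouts, and 2 knockouts lay above the lowest control. In complex II, Sdhc was at -0.25 (SE 0.16, edgeR adjusted p = 0.627) and Sdhb at -0.26 (SE 0.18, edgeR adjusted p = 0.637).

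High-fat feeding was compared with chow in knockouts, a contrast that shares its knockout livers with the comparisons above. Here 2 members were called, both accessory subunits of complex I that fell, where 5.35% of all genes were called lower. Ndufa6 (ENSMUSG00000022450, chr15:82350140-82354322) was at 123, 132, 113 and 124 CPM on chow and at 86.0, 85.8, 83.8 and 99.9 on the high-fat diet. The groups did not overlap, and the log2 fold change was -0.47 (SE 0.13, edgeR adjusted p = 0.0320). Ndufa5 (ENSMUSG00000023089, chr6:24518666-24528013) was at 30.0, 46.3, 31.7 and 34.1 CPM on chow and at 22.8, 21.9, 22.4 and 24.4 on the high-fat diet, again without overlap. It fell by 0.64 on the log2 scale (SE 0.19, edgeR adjusted p = 0.0433). In the 28 other settings, Ndufa6 was called in 17 and Ndufa5 in 13, and neither was called without chow control 2.

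Of all 78 genes, 73 were lower on the high-fat diet in knockouts, with a median of -0.30. For 38 the groups did not overlap, against 12.4% of all genes. The medians were -0.32, -0.24, -0.26, -0.39 and -0.25 for complexes I to V. The number called was 5 with DESeq2 (7.61% of all genes called lower), 4 with limma-voom (5.41%) and 4 with no filter on low counts (2.04%). It was 31 with only the groups compared in the fit (9.89%), 31 without high-fat control 3 and chow knockout 1 (11.2%), 45 with length and GC offsets (15.4%), 43 with quality weights (15.1%) and 33 without high-fat control 3, which is not in this contrast but sets the shared spread (10.2%). It was 0 with library totals as the scaling, where the members' median was 0.037 and that of all genes 0.36. It was also 0 when the unspliced share was added to the model, where the members' median was 0.094. That share did not overlap between the 2 groups (0.0463 to 0.0878% on chow, 0.162 to 0.191% on the high-fat diet). Share and diet can therefore not be told apart in this contrast. In the same contrast 4 of the 6 markers of recruited macrophages (Trem2, Gpnmb, Itgax and Ccr2) and 2 of the 5 stellate cell markers (Col1a1 and Cygb) were called higher, against 5.21% of all genes, and their part in it was not tested.

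Among the next genes, Uqcrb was at 112, 112, 99.9 and 115 CPM on chow and at 81.0, 65.4, 65.0 and 91.2 on the high-fat diet in knockouts, at -0.54 (SE 0.17, edgeR adjusted p = 0.0549). Cox6c, a nuclear subunit of the oxidase, was at 176, 166, 169.9 and 159 CPM on chow and at 123, 111, 114 and 133 on the high-fat diet, at -0.48 (SE 0.17, edgeR adjusted p = 0.0747). In both genes the groups did not overlap. Atp5j, coupling factor 6 of ATP synthase, was at -0.59 (SE 0.21, edgeR adjusted p = 0.0758), with chow knockout 1 alone at 163 CPM and the other chow knockouts at 83.6 to 96.6. Atp5f1 was at -0.54 (SE 0.20), Cox5a at -0.39 (SE 0.15) and Uqcrh at -0.62 (SE 0.25), with edgeR adjusted p of 0.0798, 0.0969 and 0.108. Sdha was at 544, 509, 519.6 and 495 CPM on chow and at 431, 411, 392 and 458 on the high-fat diet, without overlap, at -0.29 (SE 0.11, edgeR adjusted p = 0.107). Sdhd was at -0.50 (SE 0.23, edgeR adjusted p = 0.164).

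In controls the diet contrast gave no called member (DESeq2 called none), where 0.941% of all genes were called higher and 0.885% lower. The median was 0.10, with 56 genes higher and 22 lower. Higher at an unadjusted p under 0.05 were 2 genes, against 9.98% of all genes, and none had groups that did not overlap, against 3.21%. The genes with the smallest p were Cox7b at 0.55 (SE 0.25, edgeR adjusted p = 0.273) and Ndufb8 at 0.54 (SE 0.25, edgeR adjusted p = 0.275). Ndufb8, an accessory subunit of complex I, was at 94.0, 88.2, 87.2 and 64.8 CPM on chow and at 89.1, 74.9, 222 and 98.9 on the high-fat diet, so only high-fat control 3 lay above all chow controls by a wide margin. Without that liver the median was -0.18, with 68 of 78 genes lower, so the direction of the contrast rested on it. When the unspliced share was added to the model the median was 0.37 and 15 members were called higher, against 3.37% of all genes.

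Other genes with the smallest p in their complex were Ndufb4 (0.51, SE 0.25), Sdhb (0.17, SE 0.18), Uqcr10 (0.24, SE 0.22), Uqcrh (0.21, SE 0.24), Cox6c (0.27, SE 0.17), Atp5s (0.38, SE 0.19) and Atp5l (0.46, SE 0.27), with edgeR adjusted p of 0.304 to 0.730. Sdha went the other way, at -0.22 (SE 0.11, edgeR adjusted p = 0.344). It was at 549.9, 520.05, 534 and 598 CPM on chow and at 477, 523, 411 and 482 on the high-fat diet, and only high-fat control 2 reached the range of the chow controls.

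The interaction tests whether the difference between genotypes itself differed between diets. No gene was called by edgeR (0% of 14351), so no member was, and DESeq2 called no member. The estimate was negative for 77 of the 78, with a median of -0.39, and 17 were negative at an unadjusted p under 0.05, against 5.89% of all genes. Without high-fat control 3 the median was -0.12, so its size rested on that liver. The smallest p was that of Cox6c, at -0.75 (SE 0.24, edgeR adjusted p = 0.279). For Cox6c the chow controls were at 156, 155, 164 and 135 CPM and the high-fat controls at 152, 141, 277 and 166, so high-fat control 3 again stood apart.

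**Figure D5:**
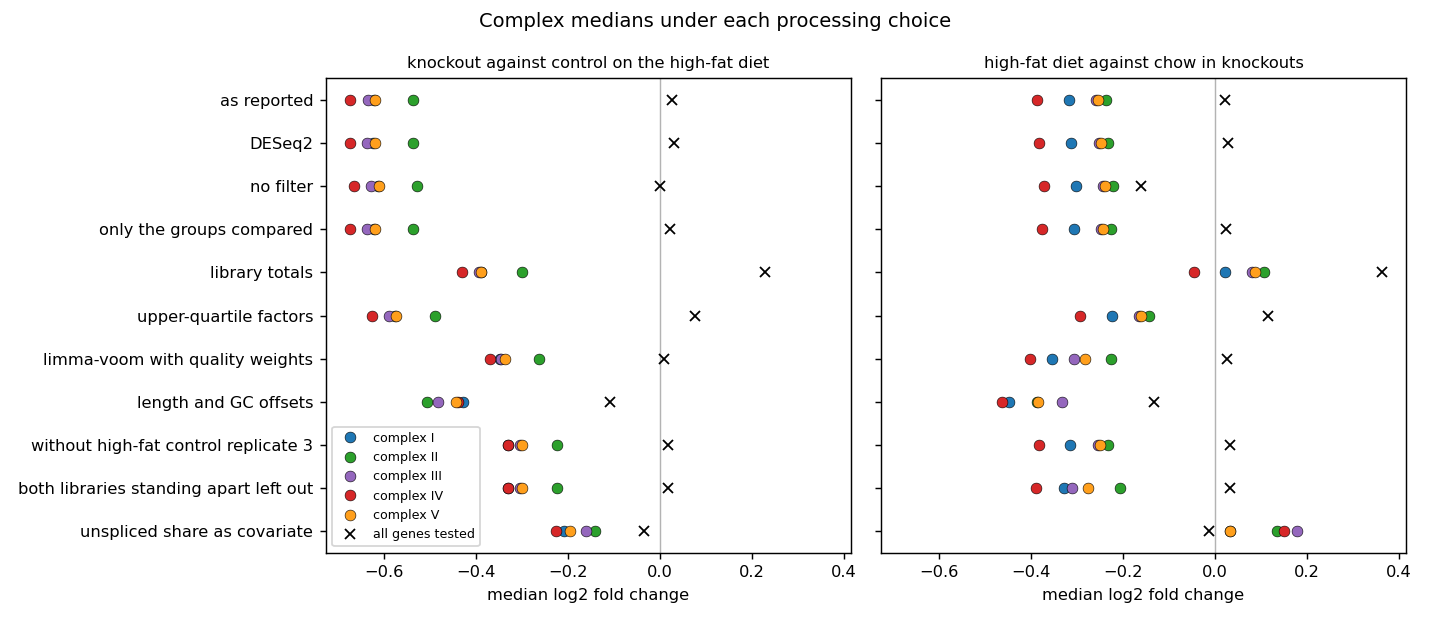
Median log2 fold change (x axis) of each complex (coloured points) and of all genes tested (crosses) under each setting (rows), for knockout against control on the high-fat diet and for high-fat diet against chow in knockouts. In the left panel every complex lies below 0 in every setting shown and complex V moves from -0.62 in the first row to -0.20 in the last, and in the right panel library totals and the unspliced share bring most complexes above 0.

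Other genes of the pathway were taken from lists, and on the high-fat diet none of the genes named here was called in knockouts against controls. Assembly factors, which build the complexes without being part of them, were lower for 45 of 49 tested, with a median of -0.42 and 25 at an unadjusted p under 0.05, against 12.8% of all genes. The examples with the smallest p were Ndufaf4, which acts on complex I (-0.62), and Uqcc3, which acts on complex III (-0.71), each with an edgeR adjusted p of 0.103. Without high-fat control 3, Uqcc3 was at -0.40. Enzymes of the citric acid cycle had a median of -0.34 over 13, with 11 lower and 7 at an unadjusted p under 0.05, against the same 12.8%. Idh3a (-0.66) and Sucla2 (-0.53) each had an edgeR adjusted p of 0.0953. Partners of the chain outside the rule had a median of -0.43 over 13, with 12 lower, among them the outer membrane channel Vdac3 (-0.46, edgeR adjusted p = 0.0981) and Ndufab1, the mitochondrial acyl carrier protein (-0.48, edgeR adjusted p = 0.108).

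Of the 13 mitochondrially encoded subunits, 8 were tested. The genes mt-Co2, mt-Co3, mt-Atp6, mt-Atp8 and mt-Nd4l did not pass the filter on low counts, and why was not tested. The medians here cover the 8 only. On the high-fat diet their median was -0.06 in knockouts against controls, with 5 lower. None was lower at an unadjusted p under 0.05 (mt-Nd3 -0.53, mt-Co1 -0.12). Both values rested on single livers: without high-fat control 3 mt-Nd3, at 0.572 to 2.57 CPM on that diet, was at -0.12, and without high-fat control 2 mt-Co1 was at -0.021. On chow their median was 1.05, with 8 of 8 higher in knockouts and 7 at an unadjusted p under 0.05, against 5.10% of all genes. Chow knockout 1 was the highest chow knockout for all but mt-Nd3 and mt-Nd6, and chow control 3 the lowest chow control for all but mt-Nd3. For mt-Nd5 they were at 2683 and 313 CPM, the other chow knockouts at 863 to 1122 and the other chow controls at 686 to 732. No median was taken without these livers, and chow knockout 1 also enters the next contrast. In knockouts on the high-fat diet against chow the median was -0.99, with 8 of 8 lower, and mt-Nd1 (-0.92, edgeR adjusted p = 0.0243) and mt-Nd6 (-2.15, edgeR adjusted p = 0.0140) fell. For mt-Nd6 the chow knockouts were at 63.9, 29.1, 230.4 and 32.3 CPM and the high-fat knockouts at 18.9 to 21.9, so chow knockout 3 set the size. Without it mt-Nd6 was at -1.04 (edgeR adjusted p = 0.0475), and without high-fat knockout 2 its adjusted p was 0.0534. For mt-Nd1 the call was lost with library totals (-0.57, adjusted p = 0.0981), without chow knockout 1 (-0.71) or 2 and without any one of the high-fat knockouts (adjusted p 0.0508 to 0.0734). The difference between nuclear and mitochondrial genes was not tested.

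Regulators of mitochondrial biogenesis had a median of -0.08 over 12 on the high-fat diet in knockouts against controls, with 6 lower. Tfam, which packages mitochondrial DNA and starts its transcription, was at -0.44 (edgeR adjusted p = 0.192) and Tfb1m, a mitochondrial rRNA methyltransferase, at -0.51 (edgeR adjusted p = 0.203). Without high-fat control 3, which was the highest liver for both, they were at -0.21 and -0.23. In knockouts on the high-fat diet against chow, Gabpa, the DNA-binding subunit of GABP, fell by 0.55 on the log2 scale (edgeR adjusted p = 0.0211). It was at 75.3, 73.6, 79.1 and 63.9 CPM on chow and at 47.2, 44.8, 54.9 and 52.7 on the high-fat diet, without overlap. Yy1 fell by 0.41 on that scale (edgeR adjusted p = 0.0191), from 89.2, 78.4, 81.6 and 73.0 CPM to 61.1, 57.7, 63.4 and 60.7. Sucla2 (-0.55, edgeR adjusted p = 0.0181) and Vdac3 (-0.40, edgeR adjusted p = 0.0487) fell as well. None of these calls held in every one of the 28 other settings: Gabpa was called in 23, Yy1 in 22, Sucla2 in 23 and Vdac3 in 8. With library totals they were at -0.21, -0.063, -0.20 and -0.053, with adjusted p of 0.342, 0.691, 0.260 and 0.766. Gabpa was also not called without chow knockout 2 or 3 or high-fat knockout 1 or 2 (adjusted p up to 0.0873). Yy1 was not called without chow knockout 2 or high-fat knockout 1 or 2 (up to 0.0835), with no filter (0.218) or with upper-quartile factors (0.0571). Sucla2 was not called without chow knockout 2 or high-fat knockout 2 or 3 (up to 0.0813) or with the unspliced share (0.151). Of the fits without 1 liver, Vdac3 was called only in that without high-fat control 3. Whether the levels of Gabpa or Yy1 bear on the members was not tested.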

How the data were processed

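RNA from 16 mouse livers was made into libraries with a stranded total RNA kit after removal of ribosomal RNA, per the labels' protocols. For each Ensembl gene and liver the authors deposited whole-number counts of reads, without normalization. The tools named in the submitters' processing notes are STAR 2.5.4a, featureCounts 1.5.1 and DESeq2, with the build GRCm38. How strand and multiply mapped reads were treated, and which annotation release served, is not given in sources used here.

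Genes were filtered with filterByExpr (minimum count 10, leaving 14351 of 53801) and scaled by TMM. A term for each of 4 groups was fitted over 16 livers with edgeR 4.0.16 (R 4.3.3), and contrasts were judged by its quasi-likelihood test at a Benjamini-Hochberg adjusted p of 0.05 over all genes tested. The common biological coefficient of variation was 0.247. CPM use TMM-scaled totals. For single genes, log2(CPM + 1) was permuted exactly over the 70 assignments of livers (two-sided), with 0.0286 as the smallest p possible. The test was also run on simulated counts, in which genes were drawn independently and no liver was shifted as a whole. That simulation does not cover genes that vary together or a liver that stands apart, as here.

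Lengths, GC content and coordinates came from a GENCODE annotation of GRCm38, and promoter windows from RefSeq. The members and lists were chosen with earlier results of these data known. The genes named are, in each complex and comparison, the 2 with the smallest unadjusted p, all complex II genes, genes with tissue isoforms and up to 2 genes per list, except that 1 gene is not reported here. Other genes named (Atp5l, Ndufa4, Ndufb2, Atp5a1, Gabpa, Yy1, mt-Nd1, mt-Nd6 and markers of other cells) were chosen after their values were seen. Alternatives were DESeq2 1.42.0, limma-voom from limma 3.58.1 with and without quality weights, other scalings and filters, length and GC offsets, the unspliced share as a covariate, fits of only the groups compared, and fits without each liver. No pair of livers of a group agreed within sampling noise (chi-square per degree of freedom at least 12.3 over 24 pairs). No batch is given in the labels.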

Additional observations from a re-analysis of the deposited data

Results flagged for a closer look

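Dixon's test was applied to the 4 livers of each group for the 36 genes looked at and the level of each complex and of all members together, 168 sets in all. Chance alone marks about 1 in 20 sets when the sets are independent. These were not, because the genes varied together in the same 16 livers and 1 liver can be marked many times. In all 22 were marked, of which 16 were high-fat control 3. It stood above the other high-fat controls in the relative level of complex III (0.93) and of complex IV (0.997). In CPM it stood apart for Atp5h (222), Atp5j (163), Cox4i1 (696), Cox6a1 (280.2), Cox6b1 (337), Cox7a1 (3.25), Ndufb4 (42.6), Ndufb8 (222), Ndufv2 (173), Sdhb (360.1), Sdhd (408), Uqcr10 (185), Uqcrc1 (389) and Uqcrh (308). Over all 78 members it stood apart for 32.

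The other 6 were spread over 3 livers. Chow knockout 1 was high for Atp5j (163 CPM) and for Cox7a2l (70.7 CPM). Chow knockout 4 was high for Cox7b (146 CPM). High-fat knockout 4 was high for Cox5a (89.4 CPM), Cox6a1 (137 CPM) and Ndufa6 (99.9 CPM). Whether these departures come from the animal or the library was not tested.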

How the results depend on the processing

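No paired analysis was possible because every mouse has its own number and the groups share none. All tests use the spread between 4 livers a group, and a difference whose groups are moved by 1 liver is known only as well as that liver. Values below are log2 medians over members or a complex, or log2 fold changes of single genes, in the settings that moved them, and the cause was not tested unless stated.

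Members called for diet in knockouts, whose shares of all genes called stand with them in the results above, were 5 with DESeq2, 4 with limma-voom, 4 with no filter, 31 with only the groups compared, 31 without high-fat control 3 and chow knockout 1, 45 with length and GC offsets, 43 with quality weights, and 0 with library totals, upper-quartile factors or the unspliced share as covariate. Leaving out 1 liver gave 0 (without chow control 2) to 33 (without high-fat control 3). Members called for knockout against control on the high-fat diet were 39 with DESeq2, 49 with no filter and 10 with quality weights. With the unspliced share 15 were called for diet in controls.

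Leaving out 1 liver moved the interaction median from -0.53 (without high-fat control 2) to -0.12 (without high-fat control 3), with complex I from -0.52 to -0.14, complex III from -0.55 to -0.040, complex IV from -0.61 to -0.17 and complex V from -0.53 to -0.079. For knockout against control on the high-fat diet, complex II ran from -0.65 to -0.22 and complex V from -0.72 to -0.30. Atp5l ran from -0.27 (without high-fat control 4) to 0.10. For diet in controls, complex II ran from 0.26 to -0.17, Sdhb from 0.31 (without high-fat control 1) to -0.11, Sdhc from 0.22 to -0.18, Sdhd from 0.29 to -0.34, Uqcr10 from 0.40 to -0.12 and Uqcrh from 0.40 to -0.27.

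Without high-fat control 3 and chow knockout 1, the interaction medians were -0.14 for all members, -0.064 for complex II, -0.097 for III, -0.15 for IV and -0.093 for V. For knockout against control on the high-fat diet complex II was at -0.22, complex V at -0.30 and Atp5l at 0.11. For diet in controls complex II was at -0.17, Sdhb at -0.11, Sdhc at -0.18, Sdhd at -0.34, Uqcr10 at -0.12 and Uqcrh at -0.27.

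With quality weights, complex II on the high-fat diet was at -0.26, the interaction for complex III at -0.091 and Atp5l at 0.056. For diet in controls Cox6c was at -0.0097, Sdhb at -0.058, Sdhc at -0.18, Sdhd at -0.32, Uqcr10 at -0.11 and Uqcrh at -0.25. With limma-voom Sdhd was at -0.0094 in that contrast.

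With length and GC offsets, diet in knockouts gave -0.44 for all members, -0.45 for complex I, -0.39 for II and -0.38 for V. Knockout against control on chow gave -0.085 for complex I and -0.095 for II. Atp5l on the high-fat diet was at 0.16, and for diet in controls Cox6c was at -0.0036, Sdhd at -0.064 and Uqcrh at -0.12.

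With library totals, which shift the median of all genes to 0.36 for diet in knockouts, members were at 0.037 there, with 0.022, 0.11, 0.080, -0.047 and 0.088 for complexes I to V, 0.053 for Sdha, 0.16 for Sdhb and 0.22 for Sdhc. The interaction was -0.14 for all members, -0.14 for complex I, -0.024 for II and -0.083 for V. On the high-fat diet Atp5l was at 0.11, mt-Co1 at 0.068 and Sdha at 0.035. With upper-quartile factors diet in knockouts gave -0.21 for all members, -0.22 for complex I and -0.14 for II.

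With the unspliced share as covariate, knockout against control on the high-fat diet gave -0.20 for all members and -0.21, -0.14, -0.16, -0.23 and -0.20 for complexes I to V, with Atp5l at 0.096 and Tfam at 0.037. On chow it gave 0.039 and 0.027, 0.0023, 0.030, 0.15 and 0.046, with Sdhb at 0.0064 and Sdhd at 0.27. Diet in knockouts gave 0.094 and 0.032, 0.13, 0.18, 0.15 and 0.033, with Sdhb at 0.21, Sdhc at 0.28, Sdhd at 0.060 and Uqcrh at 0.024. Complex II for diet in controls was at 0.37. The share did not overlap between genotypes on chow or between diets in knockouts, so in those contrasts it cannot be told apart from the groups.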

Other observations

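Markers of other cells were summed as CPM in each liver, and the ranges are given for chow controls, chow knockouts, high-fat controls and high-fat knockouts in that order. Kupffer cell markers ran from 187 to 542, 203 to 341, 181 to 481 and 217 to 429. Endothelial markers ran from 262 to 355, 197 to 365, 266 to 352 and 259.5 to 338, and stellate cell markers from 386 to 486, 457 to 506, 391 to 578 and 479 to 603. Red cell markers ran from 173 to 466, 169 to 392, 257 to 761 and 205 to 245. Markers of cholangiocytes stayed between 5.73 and 16.5 CPM in all livers, and those of T cells, B cells and neutrophils reached at most 6.50, 6.29 and 5.20 CPM, each in the high-fat knockouts. Fat markers reached 18.0 CPM and muscle markers 2.70 CPM, also in the high-fat knockouts, and exocrine pancreas markers 35.1 CPM in the high-fat controls. Between high-fat controls and high-fat knockouts the sums did not overlap for T cells (0.543 to 1.08 and 1.33 to 6.50) and red cells (257 to 761 and 205 to 245), and they overlapped for the other lists, within which the single markers Col1a1 and Cygb did not. Their part in the levels of the respiratory chain genes was not tested.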
